A study of Mus musculus with 12 samples.

Results

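The genes described here are 10 genes of arginase and polyamine metabolism, chosen by name: Ass1, Arg1, Arg2, Odc1, Azin1, Oaz1, Amd1, Srm, Sms and Sat1. They are 10 of the 44345 gene names in the count table of sciatic dorsal root ganglia (DRG), the ganglia that hold the cell bodies of the sensory neurons of the sciatic nerve. All 10 had reads, and 9 of them were among the 16238 genes that passed the filter on low counts. Arg1 did not pass it.

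Arginase splits arginine into urea and ornithine, and ornithine decarboxylase turns ornithine into putrescine, the first and rate-limiting step of polyamine synthesis. Putrescine is extended to spermidine and then to spermine by synthases that use decarboxylated S-adenosylmethionine. An acetyltransferase marks the larger polyamines for export or oxidation. Ornithine decarboxylase is held down by antizyme, which binds it and sends it to the proteasome, and antizyme in turn is bound by antizyme inhibitor. Arginase and polyamines are known in sensory neurons from work on the conditioning lesion, in which a peripheral nerve injury primes the neuron for growth.

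All animals were C57BL/6 mice of 5 to 8 weeks. They spent 10 days in standard housing (SH) or in an enriched environment (EE), a cage with a running wheel, tunnels, an igloo, extra nesting material and wooden objects. They then had a sham operation, in which the sciatic nerve was exposed (Sham), or a sciatic nerve axotomy, a complete transection of the nerve (SNA), and the L4 to L6 DRG were taken 24 h later. The 4 groups (EE + SNA, EE Sham, SH SNA, SH Sham) had 3 samples each, and each sample pooled the DRG of 2 mice. The study describes EE Sham as taken from an earlier data set. Whether SH Sham was sequenced with it or with the SNA groups is not given in the sources used here. A part of the data set in the comparisons that use EE Sham was thus not tested. These include the interaction and SNA over both housings, and the same holds for the SNA groups against SH Sham. P-values measure the spread between these pools, and in whole ganglia a change in the number of cells of a type and a change of RNA per cell cannot be told apart.

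The samples held about 11343600 to 22871500 counted reads. The 10 genes took 0.108% to 0.118% of them in the 6 Sham samples and 0.133% to 0.141% in the 6 SNA samples. The labels were checked with 6 injury genes (Atf3, Sprr1a, Gap43, Sox11, Jun and Gal), whose summed level was 494 to 569 in counts-per-million units (CPM) in Sham samples and 996 to 1186 CPM in SNA samples, and 6 of 6 rose. The 8 markers of sensory neurons summed to at least 8566 CPM in every sample. Some markers of other cells moved with SNA with both housings in the fit, where 22.4% of all genes were called in either direction. The 9 macrophage markers summed to 111 to 142 CPM in Sham samples and 133 to 246 CPM in SNA samples. None was at 0 in any group, and 5 of 9 were higher. So were 5 of 5 Schwann cell markers, 2 of 5 satellite glia markers and 2 of 5 fibroblast markers. Of the tested markers, 1 of 6 for neutrophils and 1 of 5 for endothelium were higher. None of 5 for skeletal muscle or of 2 for red blood cells was called. Of the sensory neuron markers 3 of 8 were lower. SH SNA replicate 2 held 816 CPM of 5 skeletal muscle markers against 2.52 to 140 CPM in the other samples, and EE + SNA replicate 3 held 697 CPM of 7 neutrophil markers against 66.3 to 294 CPM. The part of these cells in the results below was not tested, and results are given also without those libraries.

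Levels of different genes were compared in FPKM, fragment counts divided by gene length and library size. The mean FPKM over the 12 samples was 111 for Oaz1, 66.3 for Azin1, 50.4 for Odc1, 31.7 for Sat1, 27.6 for Ass1, 25.5 for Sms, 20.9 for Srm, 20.1 for Amd1, 6.61 for Arg2 and 0.252 for Arg1. The antizyme gene thus had the highest transcript level and the gene of the cytosolic arginase the lowest, and Arg2 and Arg1 lay below the other 8 in every sample. Some neighbours in this order did not differ beyond their spread. Sat1 was above Ass1 in 10 of 12 samples, although in SH Sham the mean of Ass1 was 31.3 FPKM ± 3.47 and that of Sat1 27.7 ± 2.60 (SD, n = 3). Ass1 was above Sms in 10 of 12 samples and Srm above Amd1 in 7 of 12, and every other step of the order held in 12 of 12.

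**Figure D1:**
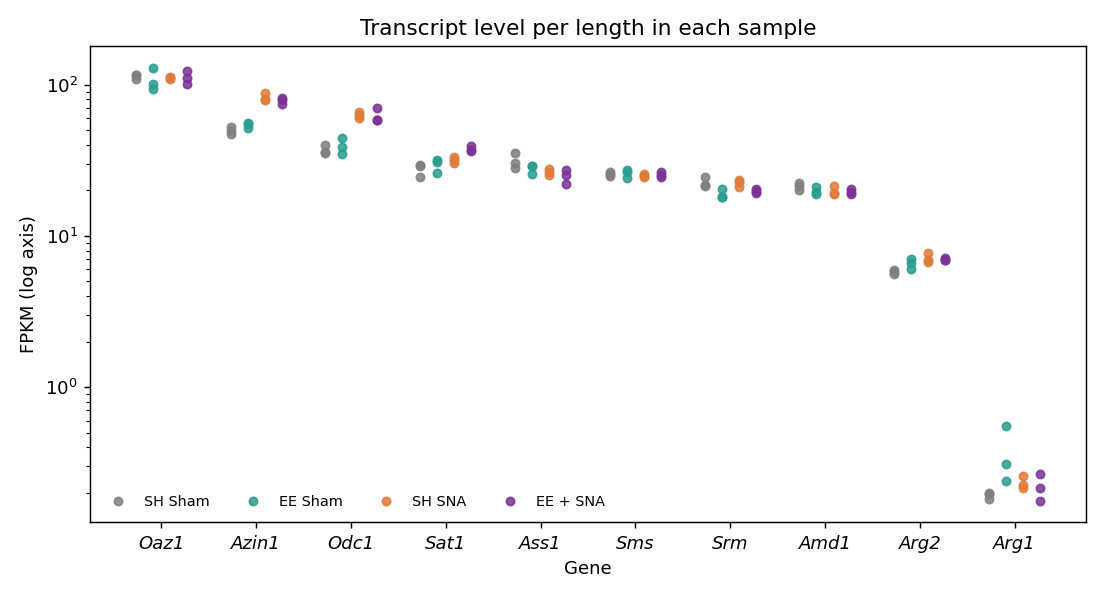
Transcript level in FPKM (log axis) of the 10 genes in each of the 12 samples, coloured by group and ordered by the mean over all samples. Oaz1 lies between 93.3 and 129.9 FPKM in all groups, Azin1 and Odc1 shift upwards in the SNA groups, and Arg1 lies under 0.55 FPKM in every sample.

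Differences between groups were tested on the read counts, and below they are given as log2 fold changes with a standard error (SE), with levels in CPM. A gene is said to have risen or fallen where its P-value from edgeR's quasi-likelihood test, Benjamini-Hochberg adjusted over all genes tested, was under 0.05. In SH SNA against SH Sham, 2 of the 9 tested members rose and 0 fell, where 11.2% of all genes were called, 6.06% higher and 5.17% lower. At an unadjusted P-value of 0.05, the threshold the study used, 5 of 9 were called against 25.2% of all genes, and the same 5 had groups that did not overlap, against 29.4%. In EE + SNA against EE Sham, 3 rose and 0 fell, against 4.83% of all genes. The same 3 were called before adjustment, against 20.6%, and had groups that did not overlap, against 25.8%. In EE + SNA against SH Sham, 3 rose and 1 fell, against 12.5%. There 6 were called before adjustment, against 27.2%, and had groups that did not overlap, against 31.8%. These comparisons share samples, and they are not separate evidence. In SNA against Sham over both housings, with 6 samples a side, 3 rose and 1 fell, against 22.4% (5 of 9 against 34.7% before adjustment), and the median log2 fold change was 0.04 over the 9 members and 0.01 over all genes. The largest changes among the members were those of Odc1 and Azin1.

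Odc1 encodes ornithine decarboxylase and lies on mm10 at chr12:17544794-17551505, on the plus strand. It had 91.9, 100.9 and 90.0 CPM in SH Sham, 90.9, 111 and 99.3 CPM in EE Sham, 161.5, 156 and 169 CPM in SH SNA, and 151, 148 and 183 CPM in EE + SNA. All 6 SNA samples were above all 6 Sham samples. The means were 94.3 ± 5.80, 100.4 ± 10.2, 162 ± 6.72 and 161 ± 19.5 CPM (SD, n = 3) in that order. Odc1 rose 1.72-fold in SH SNA against SH Sham (log2 fold change 0.78, SE 0.06, adjusted P = 8.61e-06) and 1.59-fold in EE + SNA against EE Sham (0.67, SE 0.10, adjusted P = 0.00252). Over both housings the log2 fold change was 0.73 (SE 0.06, adjusted P = 1.51e-07). The test of whether the SNA effect differed between housings, the interaction, gave −0.11 with an interval of 2 SE from −0.35 to 0.14 (unadjusted P = 0.400).

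Azin1 encodes antizyme inhibitor 1, a protein related to ornithine decarboxylase that has no decarboxylase activity and frees the enzyme from antizyme. It lies at chr15:38487427-38519266 on the minus strand. Azin1 had 330, 306 and 295 CPM in SH Sham, 354, 317.5 and 347 CPM in EE Sham, 552, 510 and 496 CPM in SH SNA, and 505, 464 and 517 CPM in EE + SNA. Here too the 6 SNA samples lay above the 6 Sham samples with no overlap. Azin1 rose 1.68-fold in SH SNA against SH Sham (log2 fold change 0.74, SE 0.06, adjusted P = 1.53e-05) and 1.45-fold in EE + SNA against EE Sham (0.54, SE 0.07, adjusted P = 0.000937), and by 0.64 (SE 0.05, adjusted P = 1.06e-07) over both housings. The interaction was −0.20 (SE 0.09, unadjusted P = 0.0526), so that a smaller SNA effect in EE was not shown. The annotation places 358 of 6256 exon bases of Azin1 opposite Gm49077 on the other strand, and whether the counting used strand is not given in the sources used here.

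Oaz1 encodes antizyme 1, the inhibitor in this triad, and lies at chr10:80826656-80829290 on the plus strand. Its level was 279 to 296 CPM in SH Sham, 246 to 329 CPM in EE Sham, 279 to 294 CPM in SH SNA and 264 to 315 CPM in EE + SNA, and the groups overlapped. The log2 fold change was −0.02 in SH SNA against SH Sham, with an interval of 2 SE from −0.12 to 0.09, and 0.02 over both housings, with an interval from −0.11 to 0.14. The FPKM ratio of Odc1 to Oaz1 was 0.305 to 0.344 in SH Sham, 0.340 to 0.385 in EE Sham, 0.532 to 0.596 in SH SNA and 0.472 to 0.641 in EE + SNA. The ratio of Azin1 to Oaz1 was 0.409 to 0.486, 0.396 to 0.591, 0.712 to 0.813 and 0.604 to 0.783 in the same order. Both ratios were higher in every SNA sample than in every Sham sample, as follows from the changes of Odc1 and Azin1 beside a level Oaz1. The ratio of Odc1 to Azin1 differed little, with means of 0.744, 0.728, 0.765 and 0.794. Antizyme is made by a ribosomal frameshift that polyamines promote, a step that transcript levels do not measure.

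**Figure D2:**
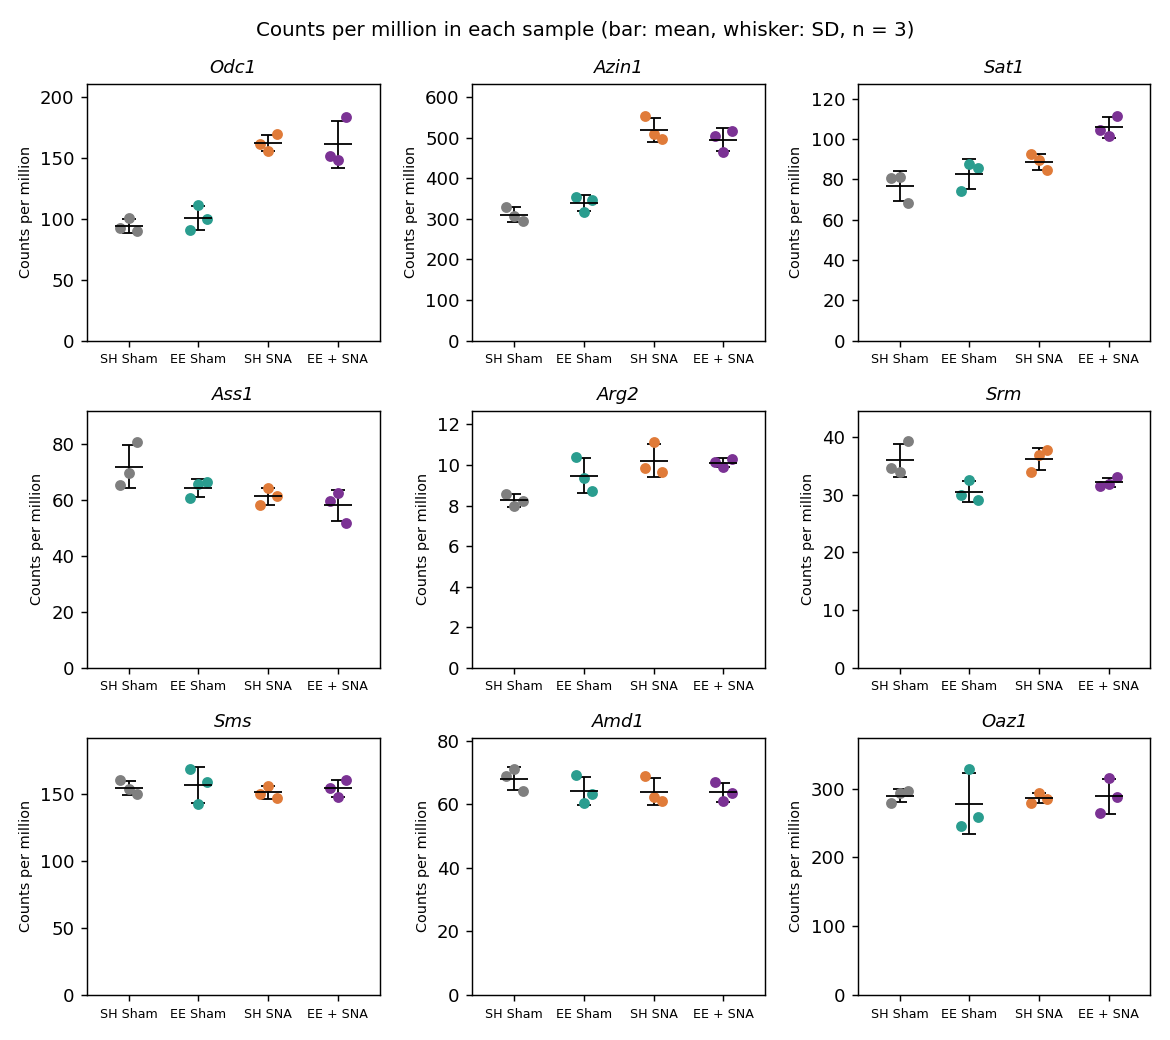
Level in CPM of the 9 tested genes in each sample, with the mean (bar) and SD (whisker) of the 3 samples of each group, on axes that start at 0. Odc1 and Azin1 are higher in all 6 SNA samples than in all 6 Sham samples, Sat1 is highest in EE + SNA, and Sms, Amd1 and Oaz1 overlap between groups.

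The promoters of Odc1, Sat1 and Oaz1 are shown to set 2 members that rose beside the antizyme gene, whose groups overlapped. They were taken from RefSeq (GRCm38.p6, the assembly behind mm10), which held entries for 6 of the 10 members (Odc1, Sms, Sat1, Amd1, Oaz1 and Ass1). They read 5′ to 3′ on the strand of the gene and cover chr12:17544623-17544793 for Odc1, chrX:155216450-155216699 for Sat1 and chr10:80826406-80826655 for Oaz1. Capitals mark matches, on either strand, to the GC box GGGCGG, the cAMP response element core TGACG, the CCAAT box, the E-box CACGTG or the AP-1 site TGACTCA, and none of the matches shown overlap.
Odc1: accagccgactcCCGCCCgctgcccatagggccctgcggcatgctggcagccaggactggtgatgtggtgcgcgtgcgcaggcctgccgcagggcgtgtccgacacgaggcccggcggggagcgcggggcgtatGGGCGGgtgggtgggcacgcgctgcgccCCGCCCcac
Sat1: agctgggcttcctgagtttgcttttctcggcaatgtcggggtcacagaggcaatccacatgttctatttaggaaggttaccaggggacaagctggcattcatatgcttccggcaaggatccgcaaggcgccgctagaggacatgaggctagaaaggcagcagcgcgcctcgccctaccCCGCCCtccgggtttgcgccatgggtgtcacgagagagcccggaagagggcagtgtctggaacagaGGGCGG
Oaz1: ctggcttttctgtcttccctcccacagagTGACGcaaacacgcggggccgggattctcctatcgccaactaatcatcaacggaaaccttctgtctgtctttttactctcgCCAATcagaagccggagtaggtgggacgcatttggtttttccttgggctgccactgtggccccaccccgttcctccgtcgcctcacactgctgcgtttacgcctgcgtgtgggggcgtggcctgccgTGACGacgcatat
The Odc1 stretch held 3 GC boxes, the Sat1 stretch 2 GC boxes, and the Oaz1 stretch 2 TGACG and 1 CCAAT. The Odc1 stretch ends where GENCODE starts the gene, and RefSeq starts it farther downstream, with 1 further TGACG 79 bases and 1 further GC box 15 bases before that start. G and C made up 77.2% of the Odc1 stretch, 59.6% of that of Sat1 and 58.0% of that of Oaz1. Such matches are common. Among 32851 RefSeq promoters, the 250 bases before the start held GGGCGG in 32.7%, CCAAT in 33.8%, TGACG in 17.8%, CACGTG in 6.02% and TGACTCA in 4.46%.

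Sat1 encodes spermidine/spermine acetyltransferase 1, which marks the larger polyamines for export or oxidation, and lies on the minus strand at chrX:155213132-155216449. It had 80.8, 80.9 and 68.3 CPM in SH Sham, 74.1, 87.7 and 85.8 CPM in EE Sham, 92.3, 89.4 and 84.4 CPM in SH SNA, and 104.5, 101 and 112 CPM in EE + SNA. The 3 EE + SNA samples were above the 9 other samples, whereas SH SNA overlapped EE Sham. A share of all genes for 3 against 9 samples was not computed. EE + SNA against SH SNA was not called (adjusted P = 0.989). Sat1 rose in EE + SNA against SH Sham (log2 fold change 0.46, SE 0.08, adjusted P = 0.00214), in EE + SNA against EE Sham (0.35, SE 0.08, adjusted P = 0.0275) and over both housings (0.28, SE 0.06, adjusted P = 0.00128). In SH SNA against SH Sham the value was 0.21 (SE 0.07, adjusted P = 0.0847, and 0.0290 with the replicate number as a block). The call against EE Sham was lost when EE Sham replicate 1 or 3 or EE + SNA replicate 1 or 3 was left out, with values from 0.27 to 0.37 and adjusted P from 0.0737 to 0.0874.

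Ass1 encodes argininosuccinate synthase, which with argininosuccinate lyase makes arginine anew from citrulline, and lies at chr2:31470207-31520672 on the plus strand. Its level was 65.6, 69.9 and 80.8 CPM in SH Sham, and 60.9, 65.7 and 66.7 CPM in EE Sham. In SH SNA it was 58.2, 64.4 and 61.5 CPM, and in EE + SNA 59.9, 62.7 and 51.8 CPM. Both SNA groups lay below SH Sham in every sample and overlapped EE Sham. Ass1 was the member that fell, in EE + SNA against SH Sham (log2 fold change −0.31, SE 0.09, adjusted P = 0.0396) and over both housings (−0.19, SE 0.06, adjusted P = 0.0266). Its value in SH SNA against SH Sham was −0.23 (SE 0.08, adjusted P = 0.0772). The first call was lost with the replicate block (adjusted P = 0.0904) and without SH Sham replicate 2 or 3 or EE + SNA replicate 1 or 3 (values −0.33 to −0.22, adjusted P from 0.0719 to 0.154). The call over both housings was lost without SH Sham replicate 3, SH SNA replicate 1 or 3, EE Sham replicate 3 or EE + SNA replicate 3 (values −0.18 to −0.14, adjusted P from 0.0505 to 0.0693).

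Arg1 encodes the cytosolic arginase, known from liver and from alternatively activated macrophages, and lies at chr10:24915221-24927484 on the minus strand. It had 3 to 10 reads per sample. The 3 samples of each group summed to 13 reads in SH Sham, 13 in SH SNA, 20 in EE Sham and 16 in EE + SNA. As CPM of the summed reads this was 0.283 (exact Poisson 95% interval 0.151 to 0.484), 0.347 (0.185 to 0.593), 0.547 (0.334 to 0.845) and 0.343 (0.196 to 0.557), intervals that cover counting error only and that overlap. Of the 20 reads in EE Sham 10 came from replicate 3. A difference in Arg1 was not detectable at this depth. The 4 liver markers together summed to under 1 CPM in every sample. The 5 markers of alternatively activated macrophages summed to 31.6 to 53.8 CPM in Sham samples and 37.2 to 127 CPM in SNA samples. Of these, 2 of 5 were higher over both housings, beside 22.4% of all genes called in either direction.

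Arg2 encodes the mitochondrial arginase and lies at chr12:79130777-79156301 on the plus strand. It had 8.56, 7.96 and 8.22 CPM in SH Sham, and 10.4, 9.33 and 8.69 CPM in EE Sham. In SH SNA it had 9.86, 11.2 and 9.63 CPM, and in EE + SNA 10.1, 9.88 and 10.3 CPM. Each of the other 3 groups lay above SH Sham in every sample, and they overlapped among themselves. The log2 fold change was 0.31 in SH SNA (SE 0.11, unadjusted P = 0.0170, adjusted P = 0.102), 0.29 in EE + SNA (SE 0.11, adjusted P = 0.114) and 0.19 in EE Sham (SE 0.13, adjusted P = 0.9999), all against SH Sham. Over both housings it was 0.20 (SE 0.08, unadjusted P = 0.0193, adjusted P = 0.0735). In EE + SNA against EE Sham it was 0.09 (SE 0.12, adjusted P = 0.725). No call was made in edgeR's quasi-likelihood test with all samples of each comparison. Over both housings, 1 of 13 fits with samples left out called Arg2. On FPKM in limma, EE + SNA against SH Sham was called at adjusted P = 0.0499 (pseudocount 1) and 0.0474 (pseudocount 0.1). SNA over both housings was also called on FPKM. Of the 1428 exon bases of Arg2, 401 lie opposite exons of Vti1b or Gm48780 on the other strand. Vti1b had 1329 to 2998 reads per sample against 107 to 227 for Arg2. Whether the counting used strand is not given in the sources used here, so that the level of Arg2 is uncertain.

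The genes between putrescine and spermine showed no call in any comparison. Amd1 makes decarboxylated S-adenosylmethionine, Srm is spermidine synthase and Sms is spermine synthase. They lie at chr10:40287458-40302186 (minus strand), chr4:148591503-148594993 (plus strand) and chrX:157443855-157492287 (minus strand). Amd1 ranged from 60.5 to 71.1 CPM over Sham samples and from 60.9 to 68.8 CPM over SNA samples, and Sms from 143 to 169 CPM and from 147 to 161 CPM. Over both housings the interval of 2 SE for the SNA effect was −0.15 to 0.05 for Amd1, −0.12 to 0.06 for Sms and −0.07 to 0.14 for Srm on the log2 scale, each below the changes of Odc1 and Azin1. Amd1 is identical or nearly so to Amd2 over 3198 of 3204 transcript bases (at least 97% identity). Amd2 was given 0 to 5 reads per sample, and reads may be split or lost between the pair, so that the level of Amd1 is uncertain. Near-identical copies also cover 1240 of 1696 bases of Ass1 (Gm5424) and 1100 of 2208 of Odc1 (Gm17709), each given 0 to 5 reads. Such copies cover 693 of 2526 bases of Oaz1 (Oaz1-ps, given 0 to 9 reads) and 1101 of 3717 of Sms (Sms-ps). Reads of these genes too may be split or lost.

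Srm, spermidine synthase, had lower levels in both EE groups, without a call. It had 34.7, 33.9 and 39.2 CPM in SH Sham and 33.9, 36.8 and 37.7 CPM in SH SNA, against 30.0, 32.6 and 29.1 CPM in EE Sham and 31.5, 31.8 and 33.0 CPM in EE + SNA. The 6 EE samples, at most 33.0 CPM, were below the 6 SH samples, at least 33.9 CPM. Groups did not overlap for 7.61% of all genes in EE Sham against SH Sham and for 10.4% in EE + SNA against SH SNA. A share for 6 EE against 6 SH samples was not computed. The part of the earlier data set behind EE Sham was not tested. The log2 fold change was −0.23 in EE Sham against SH Sham (SE 0.08, unadjusted P = 0.0134, adjusted P = 0.9999) and −0.17 in EE + SNA against SH SNA (SE 0.07, unadjusted P = 0.0410, adjusted P = 0.989), and neither passed the adjusted threshold. Blocked by replicate number, Srm in EE Sham against SH Sham had −0.24 (SE 0.08, adjusted P = 0.522).

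Housing alone called 0 of the 9 members in EE Sham against SH Sham, where 0.00616% of all genes were called. At unadjusted P = 0.05 Srm alone was called, against 2.97% of all genes, and 2 members (Srm and Arg2) had groups that did not overlap, against 7.61%. In EE + SNA against SH SNA 0 members were called, as were 0% of all genes, and Sat1 and Srm were called at unadjusted P = 0.05, against 4.10%. Sat1 was higher in all 3 EE + SNA samples than in all 3 SH SNA samples (log2 fold change 0.25, SE 0.06, unadjusted P = 0.00146, adjusted P = 0.989), and 10.4% of all genes had groups that did not overlap in this comparison. The interaction called 0 members and 0% of all genes, and 0 members at unadjusted P = 0.05, against 2.61%. For Sat1 the interaction was 0.15 (SE 0.11, unadjusted P = 0.207), so that an SNA effect that differs between housings was not shown.

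**Figure D3:**
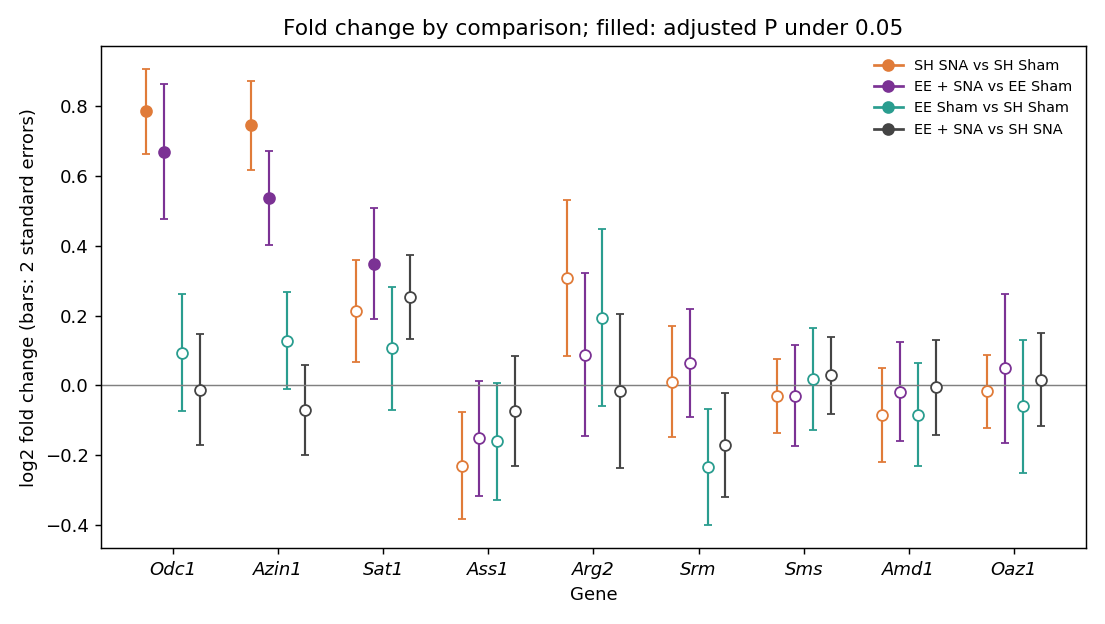
Log2 fold changes of the 9 tested genes in 4 comparisons, with bars of 2 SE and filled points where the adjusted P-value was under 0.05. Odc1 and Azin1 lie between 0.54 and 0.78 for SNA in both housings, whereas no point of the 2 housing comparisons is filled.

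Of 39 further genes around the pathway, 31 were tested. Over both housings 9 rose and 3 fell after SNA, beside the 22.4% of all genes called in either direction. Another 8 (Amd2, Agmat, Otc, Cps1, Nags, Nos2, Mat1a and Slc25a2) were under 1 CPM in every group, among them the first enzymes of the hepatic urea cycle. In SH SNA against SH Sham 6 rose and 1 fell, beside 11.2% of all genes called, and in EE + SNA against SH Sham 6 rose and 2 fell, beside 12.5%. None was called in EE Sham against SH Sham, in EE + SNA against SH SNA, in EE + SNA against EE Sham or in the interaction. At unadjusted P = 0.05 EE Sham against SH Sham called 0 of the 31, against 2.97% of all genes, and the interaction 0, against 2.61%. EE + SNA against SH SNA called 2, both lower, against 4.10%, and EE + SNA against EE Sham called 9 higher and 3 lower, against 20.6%.

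Of the 6 tested genes for polyamine synthesis, breakdown and their control, 3 rose over both housings and 0 fell. In the same test 22.4% of all genes were called in either direction. Azin2, the second antizyme inhibitor (listed under its older name Adc), went from 112 to 134 CPM in Sham samples to 136 to 161 CPM in SNA samples (log2 fold change 0.34, SE 0.05, adjusted P = 0.000219). Oaz2, the second antizyme, was 206 to 230 CPM in Sham samples and 244 to 270 CPM in SNA samples (0.22, SE 0.04, adjusted P = 0.000679). Azin2 and Oaz2 also rose in SH SNA and in EE + SNA against SH Sham. An antizyme inhibitor and an antizyme thus rose together, while Oaz1 did not pass the test. Smox, which oxidizes spermine to spermidine, rose by 0.23 (SE 0.06, adjusted P = 0.0112).

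Of 8 tested transporters 4 rose and 0 fell over both housings, beside 22.4% of all genes called in either direction. Slc7a1 and Slc7a3 carry arginine and other cationic amino acids into the cell, and their log2 fold changes were 0.14 (SE 0.05, adjusted P = 0.0476) and 0.43 (SE 0.11, adjusted P = 0.00849). For Slc7a1 the log2 fold change was 0.19 in SH SNA against SH Sham (SE 0.06, adjusted P = 0.0489) and 0.08 in EE + SNA against EE Sham, where the groups overlapped (SE 0.07, adjusted P = 0.595). In EE + SNA Slc7a1 lay below SH SNA in every sample (−0.14, SE 0.06, unadjusted P = 0.0367, adjusted P = 0.989), and the interaction was −0.10 (SE 0.10, unadjusted P = 0.303). Slc3a2, the heavy chain shared by several amino acid exchangers, rose from a median of 131 to 157 CPM (0.30, SE 0.05, adjusted P = 0.000582). Atp13a3, a P-type ATPase linked to polyamine uptake, rose from a median of 77.1 to 92.9 CPM (0.30, SE 0.06, adjusted P = 0.000915). Slc7a2, another carrier of cationic amino acids, rose in EE + SNA against SH Sham (0.28, SE 0.07, adjusted P = 0.0291).

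Among 7 tested genes that supply S-adenosylmethionine or recycle methionine, 1 rose and 1 fell over both housings. For this and the other lists in this paragraph, the share of all genes called in either direction was 22.4%. Mat2a, which makes S-adenosylmethionine outside the liver, had 185 to 211 CPM in Sham samples and 224 to 240 CPM in SNA samples (0.23, SE 0.04, adjusted P = 0.000403). Mtap, which clears the methylthioadenosine left by the polyamine synthases, fell from 23.4 to 27.6 CPM in Sham samples to 18.2 to 22.5 CPM in SNA samples (−0.29, SE 0.06, adjusted P = 0.00238). Of the 4 hypusine genes, Eif5a, the translation factor that carries the spermidine-derived residue hypusine, rose by 0.16 (SE 0.04, adjusted P = 0.00741). Its relative Eif5a2 fell by 0.18 (SE 0.06, adjusted P = 0.0493). Neither was called in SH SNA against SH Sham (adjusted P = 0.0802 for Eif5a and 0.247 for Eif5a2). The same held in EE + SNA against EE Sham (0.226 and 0.206), and the groups of Eif5a2 overlapped in both comparisons. Of the 6 tested genes of arginine and ornithine, Nos1, the neuronal nitric oxide synthase, which also uses arginine, fell (−0.19, SE 0.05, adjusted P = 0.00698), and 0 rose.

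**Figure D4:**
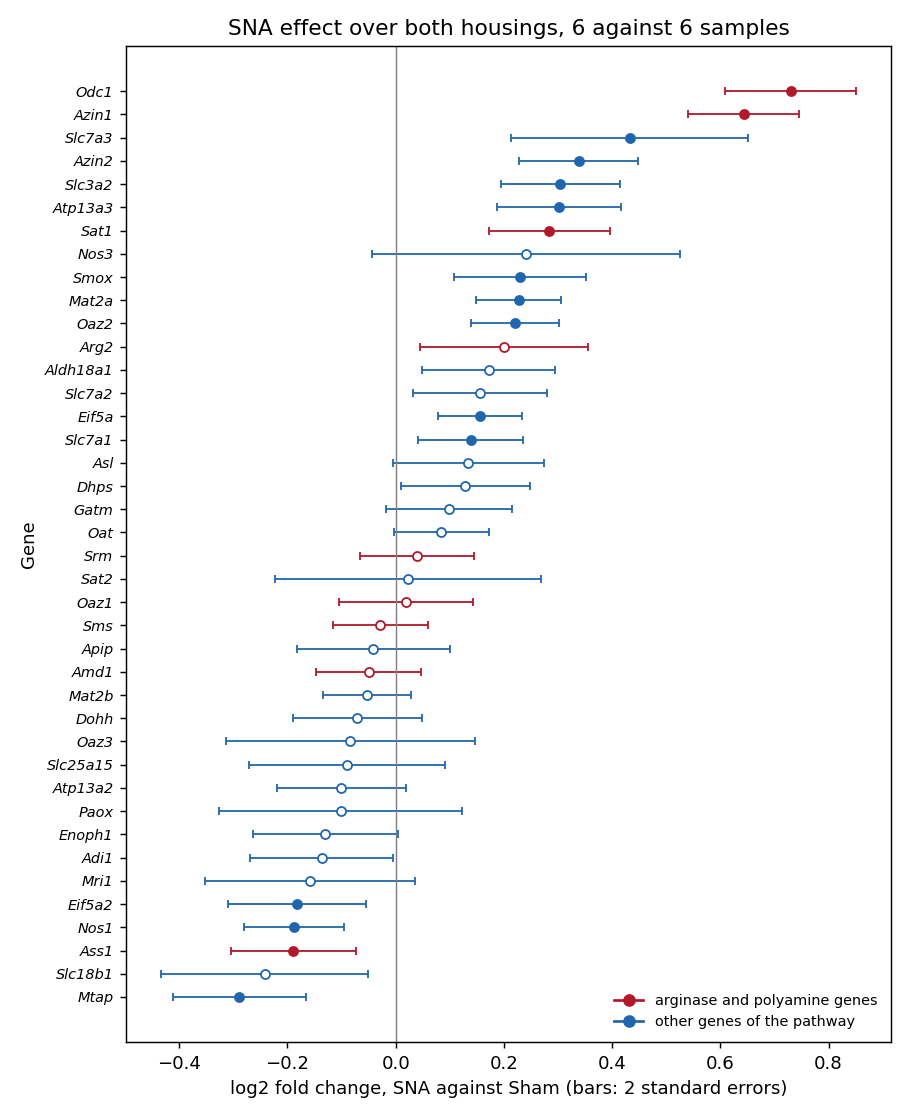
Log2 fold change of SNA against Sham over both housings (6 against 6 samples) for the 9 tested members (red) and the 31 tested genes around them (blue), with bars of 2 SE and filled points where the adjusted P-value was under 0.05. Odc1 (0.73) and Azin1 (0.64) lie above all other genes shown, and Mtap (−0.29) is the lowest.

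The genes whose level followed a member most closely over the 12 samples are given as a description, by the Pearson correlation of log2 CPM among 15343 tested genes of at least 1 CPM (15344 for Arg1). The samples share the split into 4 groups, and r within groups was not computed for these genes. For Odc1 they were Cd63 (r = 0.990), Gm16277 (0.988) and Camk1 (0.985), and for Azin1 Flrt3 (0.993), Zfp367 (0.991) and Rhoq (0.991). For Sat1 they were H1f0 (0.932), Sertad1 (0.931) and Gas5 (0.924), and for Ass1 A230005M16Rik (0.939), Ppm1f (0.933) and Fgfr1 (0.924). For Arg1, with 3 to 10 reads, they included Pdcd2l (0.825) and Msto1 (0.778).

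Without SH SNA replicate 2 and EE + SNA replicate 3, the libraries with the most muscle and neutrophil RNA, Odc1 and Azin1 over both housings had log2 fold changes of 0.69 (adjusted P = 9.04e-07) and 0.63 (adjusted P = 8.91e-07). Sat1 kept its call over both housings (0.26, adjusted P = 0.00821) and lost that against EE Sham (0.31, adjusted P = 0.0763). Ass1 lost its calls, with −0.17 (adjusted P = 0.0727) over both housings and −0.23 (adjusted P = 0.106) in EE + SNA against SH Sham.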

How the data were processed

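RNA of L4 to L6 DRG was sequenced in 12 pools of 2 mice, 3 in each of the 4 groups, as poly(A) libraries with paired-end reads. The authors aligned the reads to mm10 with TopHat2 2.0.12 and Bowtie2 2.2.3 and assigned them to gene names with HTSeq 0.6.0 (versions from the submitters' processing notes), and the deposited counts are whole numbers, not normalized. HTSeq left out 46.7% to 47.6% of the total as in no gene, 0.314% to 0.370% for ambiguity and 8.49% to 9.28% for more than 1 alignment, and its 5 summary lines stayed out of library sizes and tests. The deposited FPKM were computed by the authors from the same reads, and for the members they followed the counts within 0.0635%.

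In R 4.3.3 with edgeR 4.0.16, counts were filtered with filterByExpr (10 counts, total of 15, 4 groups), scaled by TMM over the samples of each fit and tested with glmQLFit and the quasi-likelihood F test, two-sided. The 5 comparisons of 2 groups used their own 6 samples. The interaction and SNA over both housings (with a housing term) used all 12. Called means a Benjamini-Hochberg adjusted P-value under 0.05 over 16238 genes. SE is the absolute log2 fold change divided by the root of F. CPM were scaled by TMM over 12 samples.

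All members are named, with the genes of the wider list that were called in any of 7 comparisons and the 3 genes most correlated with each called member and Arg1. Of the genes this rule names, 1 is not reported here. The members and lists were chosen with earlier results of these data known. Replicate numbers were checked for pairing by the correlation of deviations from group means. Between EE Sham and SH Sham, r was 0.111 to 0.331 for equal numbers and −0.332 to 0.194 for unequal numbers, ranges that overlap. Pairing there would rest on the data alone and was not shown. Between EE + SNA and SH SNA, r was 0.057 to 0.126 for equal numbers and −0.123 to 0.040 for unequal numbers. Those ranges did not overlap, and pairing there too would rest on the data alone. Over the comparisons other than EE Sham against SH Sham, the lowest r for equal numbers was −0.235. The values given are from the fit without the replicate block unless the block is named. Replicates differed by more than sampling noise (chi-square of 3.86 to 8.51 per degree of freedom). Near-identical copies were found by aligning transcripts of GENCODE on GRCm38 (at least 97% identity over 100 bases).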

Additional observations from a re-analysis of the deposited data

How the results depend on the processing

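The alternatives were the likelihood ratio test, DESeq2 1.42.0, scaling by library size, no filter, at least 10 counts in every sample, the replicate number as a block, limma 3.58.1 on log2 of FPKM plus 1 or plus 0.1, 1 fit of all 12 samples, and each sample left out in turn. The count of members called changed by over 1.5 times in 1 case: without a filter, SH SNA against SH Sham called 4 members in place of 2, adding Sat1 (adjusted P = 0.0370) and Ass1 (adjusted P = 0.0110). With each sample left out, 2 to 3 members were called in SH SNA against SH Sham, 3 to 4 in EE + SNA against SH Sham, 2 to 3 in EE + SNA against EE Sham and 3 to 5 over both housings, and 0 in the other 3 comparisons. In those 3 (EE Sham against SH Sham, EE + SNA against SH SNA and the interaction) DESeq2 and the likelihood ratio test also called 0 members. Odc1 and Azin1 rose with SNA in all 4 comparisons under every alternative. The replicate block called 3, 0, 3, 0 and 3 members in SH SNA, EE Sham and EE + SNA against SH Sham and in EE + SNA against SH SNA and EE Sham, 0 in the interaction and 4 over both housings. It added Sat1 in SH SNA (adjusted P = 0.0290) and removed Ass1 in EE + SNA against SH Sham (adjusted P = 0.0904), and changed no other call of a member. On FPKM Sat1 lost its call against EE Sham (adjusted P = 0.0743 and 0.0729) and Ass1 that in EE + SNA against SH Sham (0.0771 and 0.0752), and Arg2 was called over both housings (0.0346 and 0.0333). The cause of these changes was not tested. The share of all genes called under each alternative is not given here. A change in the count of members thus cannot be told from a change over all genes. Leaving out SH SNA replicate 2 and EE + SNA replicate 3 together was added after seeing the data. Depth limits Arg1, with 3 to 10 reads per sample.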
